A study of Mus musculus with 18 samples.

Results

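Basonuclin 2 (Bnc2) and basonuclin 1 (Bnc1) are related zinc finger genes, and the circular and linear RNAs of both were followed with and without the exportin XPO4 in NIH/3T3, a fibroblast line from mouse embryos. All circular RNAs (circRNAs) whose start and end lay inside the annotated span of either gene were taken, which gave 8 of the 16171 circRNAs of the series, 7 in Bnc2 and 1 in Bnc1. The counts of the 2 genes themselves came from tables of 55401 genes. The genes were chosen by measured values, the cytoplasmic and nuclear junction reads of a Bnc2 circle. Of these, the cytoplasmic reads differed between genotypes. Values from the cytoplasm and the nucleus are therefore given as a description. The wild-type (WT) cells carried no edit named in the labels. In the XPO4 knockout (KO) cells, made with CRISPR-Cas9, both copies of Xpo4 carried the same edit, so that all KO libraries came from 1 edited line. CircRNA-seq covered whole-cell, cytoplasmic (cyto) and nuclear (nuc) RNA with 2 libraries of each genotype, all treated with RNase R, an enzyme that digests linear RNA. mRNA-seq covered 3 libraries of each genotype. Nothing in the labels says that replicates were separate cultures, so p-values measure only the spread between these libraries, which may be technical.

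A circRNA forms when the end of an exon is spliced backward onto the start of the same or an earlier exon, and the read that crosses this backsplice junction identifies it. Exonic circles carry no free ends, resist RNase R, and are mostly found in the cytoplasm. Basonuclins bind DNA through paired zinc fingers. Basonuclin 1 is known from basal keratinocytes and germ cells, where it has been tied to transcription of the ribosomal RNA genes by RNA polymerase I. Basonuclin 2 is known from mesenchymal cells such as fibroblasts, from pigmented skin, and from regulation of matrix genes.

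In the annotation of the mouse genome build GRCm38, Bnc2 (ENSMUSG00000028487.18) lies at chr4:84275095-84675275 and Bnc1 (ENSMUSG00000025105.10) at chr7:81966653-81992307, both on the minus strand. Exons are numbered here along the transcripts Bnc2-201, with 8 exons, and Bnc1-201, with 5 exons. E1b is an exon of another transcript, Bnc2-203, between E1 and E2, at chr4:84610109-84610197. Each circle is named by its first and last exon. Junction reads give only the ends of a circle. Inner exons, removal of introns and spliced lengths were inferred from the annotated exons and were not observed. All 8 circles began and ended on annotated exon edges, and at all 8 the genome had AG just before the first exon and GT just after the last, the letters of a splice acceptor and a splice donor. The junctions tell the circles apart and are therefore shown as the last 15 bases of the last exon in lower case followed by the first 15 bases of the first exon in capitals, read from the reference genome 5′ to 3′.
circBnc2(E2-E3): agaatgtcccaacagGCACGTTTTGTGCCC
circBnc2(E2-E4): aggctggaagtccagGCACGTTTTGTGCCC
circBnc2(E3-E4): aggctggaagtccagTCAGAAGAGGCAGAA
circBnc2(E3): agaatgtcccaacagTCAGAAGAGGCAGAA
circBnc2(E1b-E3): agaatgtcccaacagATCAACAAAAGAGAT
circBnc2(E5-E6): ggatacatccttcagGCCATCCGCTGCACA
circBnc2(E7): tcgaagcagagacagGACGCTGCTGGCAAG
circBnc1(E2-E3): ggatatgtgttacagGCTATCGGCTGTACT
Of the 7 Bnc2 circles, 5 spanned E3, and 3 of these used the same splice donor at its end. The lines above show them sharing the lower-case bases while the capitals differ with the first exon. 2 circles began at E2 and share the capitals.

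circBnc2(E2-E3) had the most reads of the 8 circles when all libraries were pooled, though not in WT cytoplasm or in the first KO nuclear library. It spans chr4:84546205-84555904 and is 327 nt after splicing. Its exons, both coding in Bnc2-201, are shown because every large difference below rests on them, with the 15 bases on either side of the backsplice in capitals. E2 is chr4:84555779-84555904 and E3 is chr4:84546205-84546405, minus strand.
Bnc2 E2: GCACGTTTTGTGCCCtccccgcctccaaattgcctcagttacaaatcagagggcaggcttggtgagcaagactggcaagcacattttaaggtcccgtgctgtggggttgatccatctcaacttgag
Bnc2 E3: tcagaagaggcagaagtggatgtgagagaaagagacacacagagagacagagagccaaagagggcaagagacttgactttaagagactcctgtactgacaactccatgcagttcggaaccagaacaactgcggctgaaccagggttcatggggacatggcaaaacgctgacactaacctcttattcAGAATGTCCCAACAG
The intron before E2 is 119070 nt and the intron after E3 is 39593 nt, while the annotated intron between both exons is 9373 nt. For scale, the median annotated intron was 1421.5 nt, and 0.507% and 2.61% of introns were at least as long as the introns flanking this circle.

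**Figure D1:**
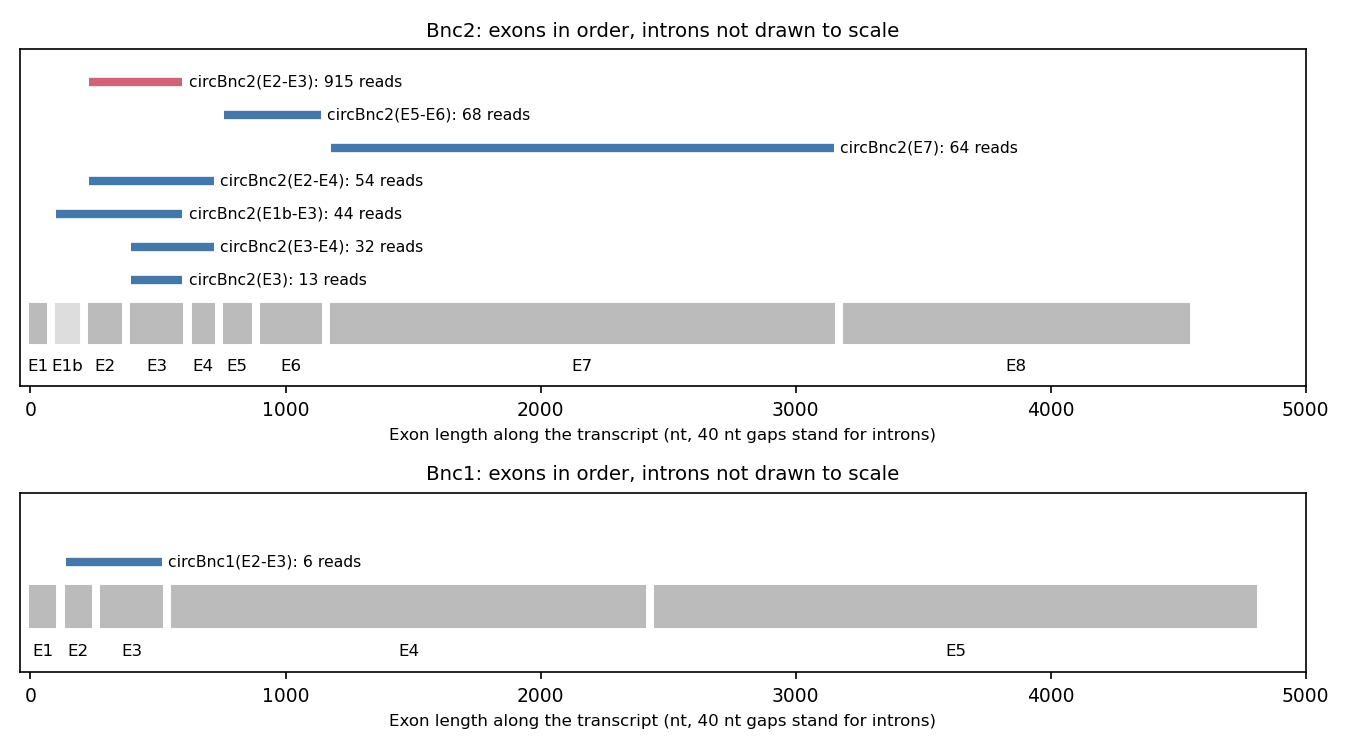
Exons of Bnc2 (top) and Bnc1 (bottom) in transcript order, drawn to scale along the horizontal axis in nt with fixed gaps in place of introns, and bars for the stretch each circle covers. The number beside each bar is its junction reads summed over the 12 circRNA libraries, and circBnc2(E2-E3), in red, has 915.

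The whole-cell libraries held 50341 to 58165 junction reads, the cytoplasmic ones 50629 to 81941 and the nuclear ones 2189 to 4383, and the mRNA libraries 16974062 to 22057323 counted reads. Levels of circles are therefore given as junction reads and as reads per 100000 junction reads of the library. A count of 0 allows a level of up to 3 reads, which is 3.66 to 5.93 per 100000 in the cytoplasm, 5.16 to 5.96 in whole-cell RNA and 68.4 to 137 in the nucleus. Intervals and limits of this kind cover counting error only. Xpo4 mRNA was counted 712, 504 and 687 times in the KO libraries and 657, 614 and 685 times in the WT libraries, so it did not separate the genotypes (log2 fold change 0.18, SE 0.11, edgeR adjusted p = 0.193). Without the second KO library it was higher in KO, with a log2 fold change of 0.34 (edgeR adjusted p = 0.000252). The heading inside each mRNA table names the other genotype, and the sample labels were followed. If the headings were right in place of the labels, every mRNA direction below would turn. For the circRNA libraries the labels of fraction and genotype were followed as well. The leading Bnc2 circle was high in WT whole-cell RNA and KO cytoplasm and low in WT cytoplasm and KO whole-cell RNA, and an exchange of libraries, which was not tested, would change what its levels mean. As fibroblast markers, 10 of 10 genes were detected, with summed levels of 11553 to 11927 CPM, counts scaled to the library total, in WT and 12200 to 12844 in KO.

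Across all 12 libraries circBnc2(E2-E3) held 915 of the 1190 reads of Bnc2 circles, or 76.9%. In whole-cell RNA it was read 220 and 183 times in the WT libraries and 44 and 43 times in the KO libraries. Neither KO library reached the lower WT library, and the circle ranked 6th and 7th of all circRNAs in WT and 118th and 37th in KO. Its level was 356 ± 34.4 per 100000 in WT and 80.5 ± 6.91 in KO (SD, n = 2). The KO to WT ratio of summed reads per library total was 0.225 (exact 95% interval 0.176 to 0.284).

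Whether circles changed in whole-cell RNA was tested with edgeR's quasi-likelihood test over 8903 circRNAs with at least 10 reads. None passed an adjusted p of 0.05 (percent called 0), the smallest adjusted p being 0.0580, while 3405 had an unadjusted p under 0.05 and DESeq2 called 7 (percent called 0.0786). For circBnc2(E2-E3) the log2 fold change was -2.17 (SE 0.60, edgeR adjusted p = 0.0580), against a median of -0.08 over all circRNAs tested. This call depends on the settings. The circle passed with edgeR after scaling by library totals alone (adjusted p = 0.0203, percent called 22.5) and with a minimum of 20 reads (adjusted p = 0.00981, percent called 6.77), and missed with DESeq2 (adjusted p = 0.315). Its whole-cell counts had been seen when the genes were chosen, and the test is not independent evidence.

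In the cytoplasm the order of the genotypes was the opposite. circBnc2(E2-E3) had 2 and 2 reads in the WT libraries and 139 and 256 in the KO libraries, so that it ranked 6540th and 6739th in WT and 4th in both KO libraries. The ratio of reads per library total, KO to WT, was 138 (exact 95% interval 53.6 to 511). The fitted log2 fold change of 7.04 describes the contrast that chose the gene and supports nothing, and 53.5% of the 8917 cytoplasmic circRNAs fitted were past the threshold (percent called 30 higher and 23.5 lower). Nuclear reads numbered 5 and 6 for WT and 4 and 11 for KO, and the groups overlapped (ratio of reads per library total 0.810, exact 95% interval 0.347 to 1.95).

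Ordered by level, circBnc2(E2-E3) was highest in WT whole-cell RNA (356 ± 34.4 per 100000) and KO cytoplasm (339 ± 91.7), then WT nucleus (228 ± 0.503), KO nucleus (179 ± 102), KO whole-cell RNA (80.5 ± 6.91) and WT cytoplasm (2.51 ± 0.0914; SD, n = 2 in each). Neighbours in this order differed by less than their spread for WT whole-cell RNA and KO cytoplasm, for both nuclei, and for KO nucleus and KO whole-cell RNA. Within WT, the whole-cell level stood far above that of the cytoplasm, and within KO the cytoplasmic level stood above that of the whole cell. Of the 80 circRNAs with at least 100 reads in WT whole-cell RNA, 2 (2.5%), this circle included, had as few as 4 reads in the WT cytoplasm. Since fractions were sequenced as separate libraries, levels per 100000 reads give shares of each fraction and not amounts per cell.

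**Figure D2:**
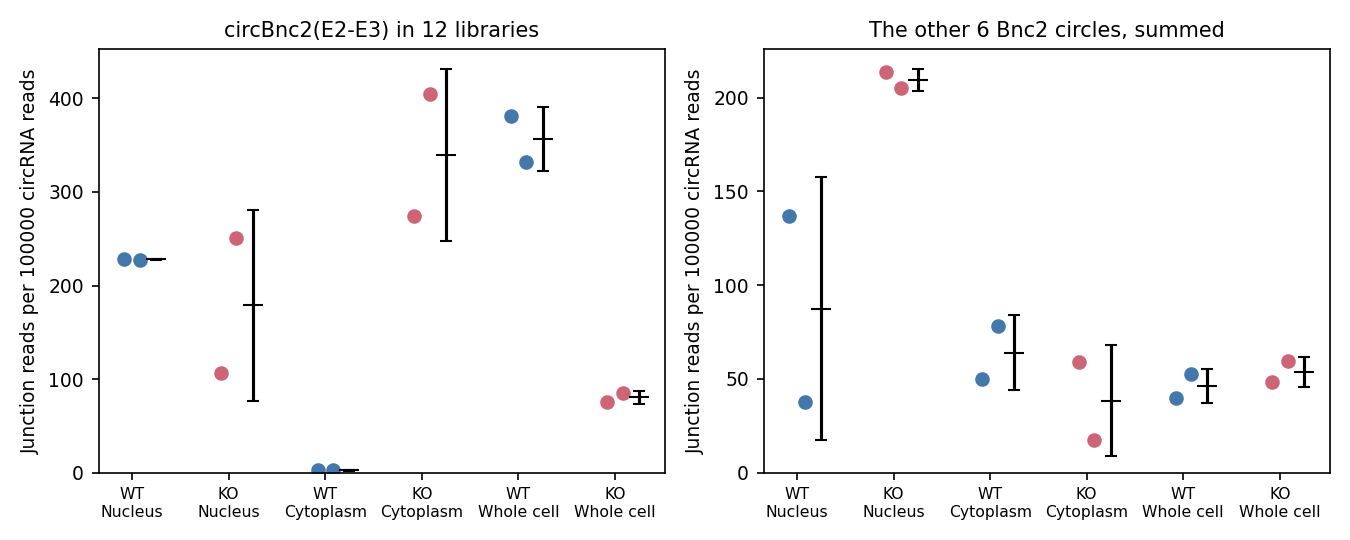
Junction reads per 100000 circRNA reads (vertical axis) of circBnc2(E2-E3), left, and of the other 6 Bnc2 circles summed, right, by genotype and fraction, with 1 point per library and the mean and SD (n = 2) beside it. The left panel shows WT and KO changing order between cytoplasm and whole cell, while in the right panel the whole-cell groups overlap.

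The other 6 Bnc2 circles served as a comparison from the same gene. In whole-cell RNA they summed to 46.2 ± 9.06 per 100000 in WT and 53.9 ± 8.10 in KO (SD, n = 2), and the groups overlapped (exact permutation test, two-sided, p = 0.667, where 0.333 is the least possible). All 7 together reached 403 ± 25.4 in WT and 134 ± 15.01 in KO, a KO minus WT difference of -268, with no overlap between the genotypes (exact permutation test, two-sided, p = 0.333, the least that 2 libraries against 2 can give).

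The share of the leading circle among Bnc2 circle reads differed in the same directions. In whole-cell RNA the share was 90.5% (Wilson 95% interval 86.2 to 93.6) and 86.3% (81.0 to 90.3) in the WT libraries and 61.1% (49.6 to 71.5) and 58.9% (47.4 to 69.5) in the KO libraries. In the cytoplasm it was 4.88% (1.35 to 16.1) and 3.03% (0.83 to 10.4) in WT and 82.2% (75.8 to 87.3) and 95.9% (92.8 to 97.7) in KO. In the nucleus, on 7 to 20 Bnc2 circle reads a library, it was 62.5% (30.6 to 86.3) and 85.7% (48.7 to 97.4) in WT and 33.3% (13.8 to 60.9) and 11 of 20 reads (34.2% to 74.2%) in KO. In WT cytoplasm nearly all Bnc2 circle reads thus came from the other circles, with none from circBnc2(E3).

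circBnc2(E2-E4), at chr4:84506528-84555904 and 411 nt long by annotation, spans E2, E3 and E4. It was read 17 and 17 times in WT cytoplasm and 2 and 0 times in KO cytoplasm, where the leading circle was high. The whole-cell libraries gave 5 and 5 reads for WT and 4 and 4 for KO. The cytoplasmic ratio of reads per library total, KO to WT, was 0.0825 (exact 95% interval 0.00960 to 0.322) and the whole-cell ratio 0.832 (0.285 to 2.34). In the cytoplasm both circles that begin at E2 were past the threshold, in opposite directions. The background there is high, since 53.5% of the 8917 circRNAs fitted were past it (percent called 30 higher and 23.5 lower). For circBnc2(E2-E4) the log2 fold change was -3.41 (edgeR adjusted p = 0.000777). This too comes from the contrast that chose the gene and is a description. That value rests on the second KO library, without which the adjusted p was 0.0626. DESeq2 gave an adjusted p of 0.0545 (percent called 9.86), and the log2 fold change was -1.97 without that library.

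circBnc2(E3-E4), at chr4:84506528-84546405 and 285 nt long, was read 3 and 3 times in WT whole-cell RNA and 6 and 8 times in KO. Cytoplasmic reads numbered 4 and 6 for WT and 2 and 0 for KO. Its reads were higher in KO in whole-cell RNA and higher in WT in the cytoplasm, the reverse sense to the leading circle. On so few reads and libraries such an order is weak, and its share over all circRNAs was not counted. The whole-cell log2 fold change was 1.23 (SE 0.53, edgeR adjusted p = 0.141). The exact 95% interval of the ratio of reads per library total held 1 in both fractions (0.876 to 7.71 in whole-cell RNA and 0.0299 to 1.32 in the cytoplasm).

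circBnc2(E3), the single exon E3 closed on itself (chr4:84546205-84546405, 201 nt), was listed in nuclear libraries alone, with 5 and 5 reads in KO and 3 and 0 in WT. Its level there was 134 and 114 per 100000 in KO. In the 8 cytoplasmic and whole-cell libraries a count of 0 puts it at 5.96 per 100000 or below. The ratio of nuclear reads per library total, KO to WT, was 1.98 (exact 95% interval 0.510 to 11.2), and the genotypes did not differ beyond that interval. In the nuclear fits it had a log2 fold change of 0.75 (edgeR adjusted p = 0.574) and the leading circle one of -0.50 (edgeR adjusted p = 0.645), where 10.1% of 651 circRNAs were past the threshold and the median log2 fold change was 0.44. Neither sign was stable. The leading circle stood at 0.65 without the first KO library and at 0.46 with a minimum of 20 reads, and circBnc2(E3) at -0.60 without the second WT library, none past the threshold.

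circBnc2(E5-E6), at chr4:84390889-84414348 and 339 nt long, was read 3 and 10 times in WT whole-cell RNA and 8 and 5 times in KO. Its cytoplasmic reads numbered 8 and 22 for WT and 7 and 5 for KO. Its whole-cell log2 fold change was 0.04 (SE 0.59, edgeR adjusted p = 0.963).

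circBnc2(E7), the 1970 nt coding exon closed on itself at chr4:84291693-84293662, was read 7 and 2 times in whole-cell RNA of WT and 5 and 6 times in that of KO. Cytoplasmic reads numbered 6 and 13 for WT and 14 and 3 for KO. In the nucleus the KO libraries had 3 and 4 reads and the WT libraries 0 and 1. Its whole-cell log2 fold change was 0.32 (SE 0.62, edgeR adjusted p = 0.724).

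circBnc2(E1b-E3), at chr4:84546205-84610197 and 416 nt long, was read 5 and 9 times in whole-cell RNA of WT and 5 and 7 times in that of KO. Its cytoplasmic reads were 4 and 6 for WT and 5 and 3 for KO. The whole-cell log2 fold change was -0.18 (SE 0.50, edgeR adjusted p = 0.838), and that of circBnc2(E2-E4) was -0.27 (SE 0.51, edgeR adjusted p = 0.779). None of circBnc2(E5-E6), circBnc2(E2-E4), circBnc2(E1b-E3) and circBnc2(E3-E4) was read in a nuclear library, where the depth allows levels above those they had in whole-cell RNA, so that a lower nuclear level was not detectable at this depth.

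**Figure D3:**
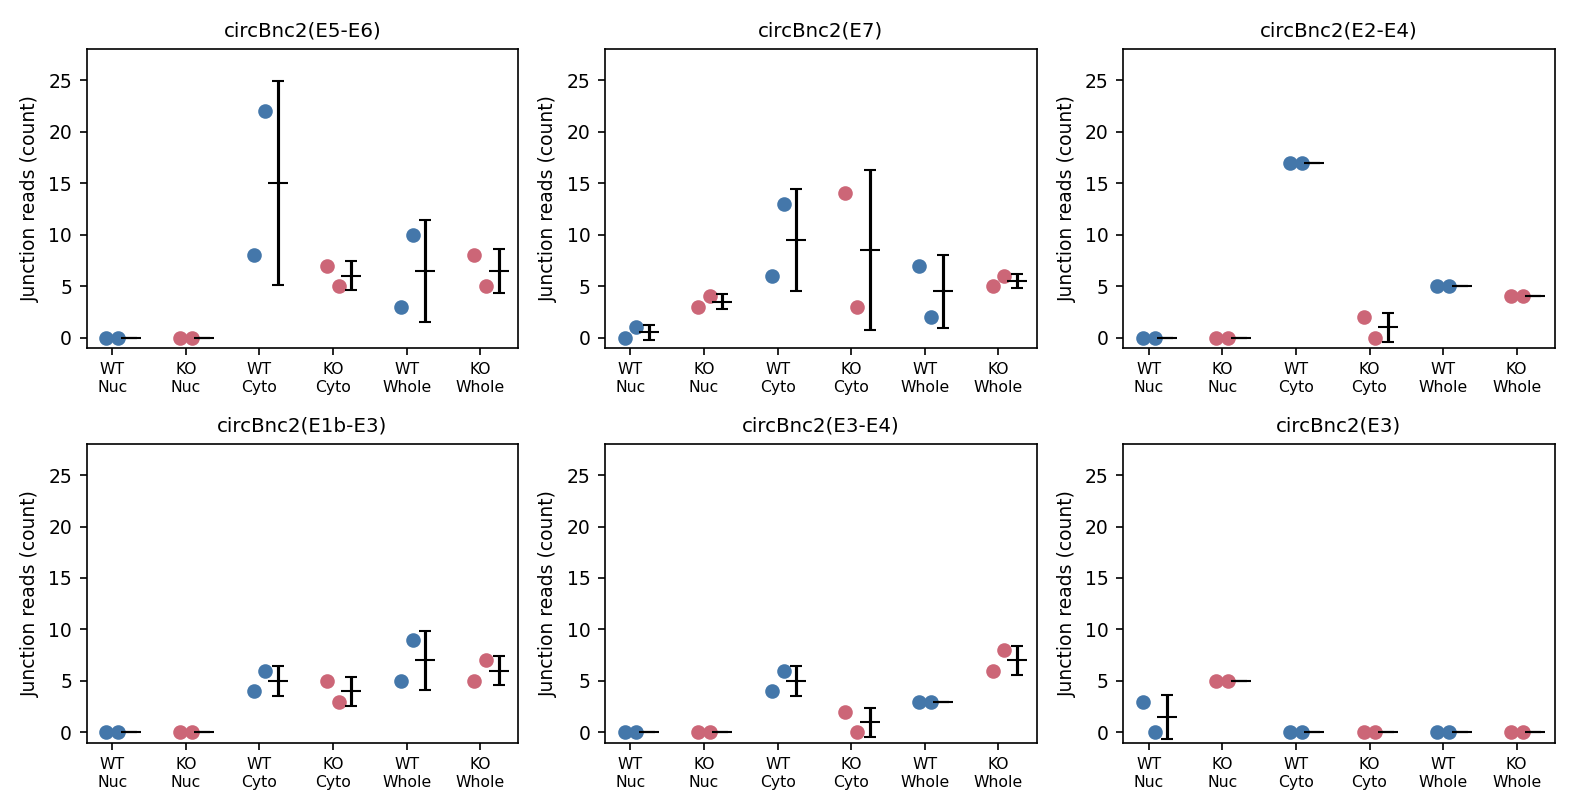
Junction reads (vertical axis, count) of the 6 rarer Bnc2 circles by genotype and fraction, with 1 point per library and the mean and SD (n = 2) beside it. circBnc2(E2-E4) has 17 reads in both WT cytoplasmic libraries and at most 2 in the KO ones, and circBnc2(E3) has reads in the nucleus alone.

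The first exon of circBnc2(E1b-E3) has a further property. The RefSeq table (GRCm38.p6) places a transcription start of Bnc2 at position 84610197, the very base at which E1b begins, whereas the GENCODE transcript Bnc2-203 has E1b as an internal exon. The 2 bases before this position are AG, as they are before 6.07% of the 32851 starts in that table. The junction reads of the circle join the end of E3 to this base.

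Of the 8 circles, 6 had a spliced length that is a multiple of 3, and in these 6 the reading frame of the mRNA met no stop codon over 3 turns of the circle. circBnc2(E7) and circBnc2(E1b-E3) were the exceptions in length. The GC content of the spliced circles ran from 48.8% to 54.0%. These are properties of the annotated exons in the reference sequence, and translation was not measured.

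circBnc1(E2-E3), at chr7:81977209-81978517 and 336 nt long, was the only circle of Bnc1. It was read 2 and 2 times in KO cytoplasm and 0 and 2 times in WT cytoplasm, with none in the other 8 libraries. At 6 reads in all it was under the minimum for the test (ratio of reads per library total, KO to WT, 2.80, exact 95% interval 0.402 to 31.0). Its exons are the counterparts of those in circBnc2(E5-E6). Among the 40 pairs of a Bnc2 with a Bnc1 exon, Bnc2 E5 and Bnc1 E2 had 75 identical bases in 103 aligned columns (72.8%) and Bnc2 E6 and Bnc1 E3 had 170 in 236 (72.0%). Each was the closest Bnc2 exon to that exon of Bnc1. Both genes gave a circle from the same matching pair of exons. The shorter pair is shown, from chr4:84414246-84414348 and chr7:81978418-81978517 on the minus strand, with identical aligned bases in capitals.
Bnc2 E5: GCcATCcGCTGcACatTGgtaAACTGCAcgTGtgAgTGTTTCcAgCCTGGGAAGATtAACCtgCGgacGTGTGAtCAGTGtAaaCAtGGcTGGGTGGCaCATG
Bnc1 E2: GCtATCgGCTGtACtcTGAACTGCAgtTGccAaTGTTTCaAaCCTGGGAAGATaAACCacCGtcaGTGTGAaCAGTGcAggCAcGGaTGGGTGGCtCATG

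At the mRNA level Bnc1 rose in KO while Bnc2 did not pass the test, and the difference between their changes was not tested. Bnc2 was counted 819, 734 and 774 times in the WT libraries and 716, 471 and 745 times in the KO libraries. The second KO library was the lowest and the groups overlapped after scaling to library totals. Its level was 4.64 ± 0.343 FPKM, reads per kilobase of exon scaled to the library total, in WT and 4.49 ± 1.10 in KO (SD, n = 3), with a log2 fold change of -0.05 (SE 0.14, edgeR adjusted p = 0.790). Without the second KO library the log2 fold change was 0.15 (edgeR adjusted p = 0.108).

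Bnc1 was counted 529, 454 and 568 times in WT and 656, 612 and 678 times in KO, every KO library above every WT library. Its level was 5.38 ± 0.363 FPKM in WT and 7.90 ± 0.555 in KO (SD, n = 3), and it rose by a log2 fold change of 0.55 (SE 0.08, edgeR adjusted p = 8.62e-05). The background is high, since 48.7% of the 14688 genes tested passed, 25.1% higher and 23.6% lower in KO. The counting did not use strand, and the small gene Gm12421 lies inside an intron of Bnc2. The gene 4833418N17Rik, counted 8, 8 and 1 times in WT and 2, 0 and 1 times in KO, overlaps the span of Bnc1 at its first exon. What this overlap did to the Bnc1 counts was not tested.

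**Figure D4:**
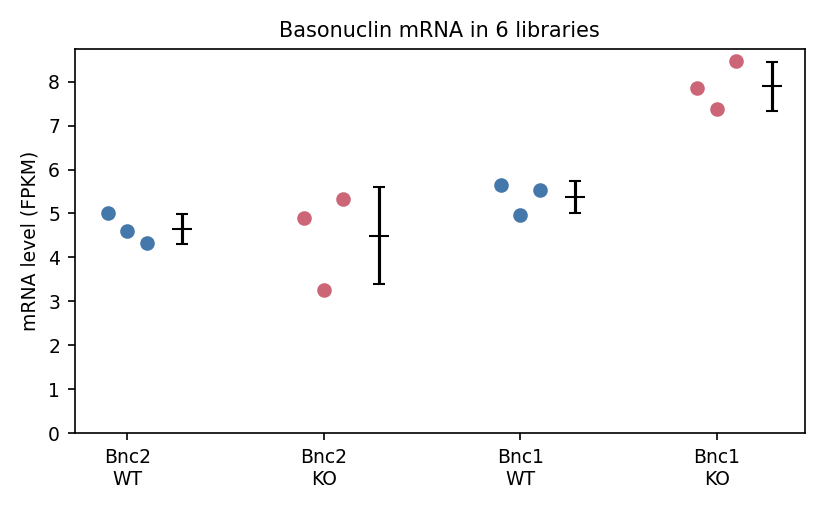
mRNA level in FPKM (vertical axis, from 0) of Bnc2 and Bnc1 in the WT and KO libraries, with 1 point per library and the mean and SD (n = 3) beside it. Bnc1 is above every WT library in all KO libraries, while Bnc2 has 1 low KO library and overlaps.

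Read beside each other, circBnc2(E2-E3) had whole-cell levels of 356 per 100000 in WT and 80.5 in KO, and Bnc2 mRNA had levels of 4.64 and 4.49 FPKM. The circular and linear RNAs came from different library types, and no ratio between them was formed.

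Genes near the basonuclins were counted as a check on their surroundings. Within 1 Mb of Bnc2, 7 genes were tested, of which Gm12418 rose (log2 fold change 1.17) and Snapc3 fell (-0.21). The Snapc3 protein is a subunit of a complex that acts in transcription of small nuclear RNA genes. Snapc3 no longer passed with any of 4 single libraries left out. Within 1 Mb of Bnc1, 20 genes were tested, with 3 higher and 6 lower. Mex3b, an RNA-binding protein, fell by 1.52 on the log2 scale, Cpeb1, which controls polyadenylation, by 0.60. Alpk3, a kinase of muscle, fell from 19, 27 and 26 counts in WT to 5, 2 and 2 in KO. Whamm and 3110040N11Rik also fell, by 0.32 and 0.26. The call of 3110040N11Rik was lost with DESeq2 (adjusted p = 0.0540), without a filter on low counts (edgeR adjusted p = 0.0514) and with any of 4 single libraries left out (edgeR adjusted p 0.0563 to 0.0868). Btbd1, Hdgfl3 and Ramac rose by 0.34, 0.31 and 0.30. With 9 of 20 (45.0%) passing near Bnc1 and 2 of 7 (28.6%) near Bnc2, neither exceeded the background of 48.7%.

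Sets of genes linked to the known roles of the basonuclins were described beside them. Of 18 mesenchymal transcription factors tested, 8 rose and 4 fell, 12 in all (66.7%, against 48.7% of all genes), with a median log2 fold change of 0.10 against -0.00293 over all genes. Prrx1, a factor of limb and connective tissue mesenchyme, fell by 0.75 and its relative Prrx2 by 0.25, while Twist1 rose by 0.31 and Tbx15 by 0.27. Of 22 matrix and contractile genes, 10 rose and 9 fell (86.4% in all, against 48.7% of all genes, median 0.06). The collagen chain Col1a1 fell by 0.34 and fibronectin, Fn1, by 0.21, whereas Col1a2 rose by 0.16 and the cross-linking enzyme Lox by 0.19. These were the called genes with the highest counts, and others in the list changed more. Adam12 fell by 3.12 and Col12a1 by 1.27, while Ccn2 rose by 2.78 and the contractile gene Acta2 by 1.18. Fn1 lost its call without each single WT library (adjusted p 0.0610 to 0.137) and had a log2 fold change of -0.11 without the second KO library. Col1a2 lost its call without the first KO library (adjusted p = 0.0854) and without the second or the last WT library (0.126 and 0.0858), and Lox without the last WT library (0.0543), all with edgeR.

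Of 15 genes of RNA polymerase I transcription, none rose, 5 fell and 10 did not pass (median -0.14), so that 33.3% were lower, against 23.6% of all genes lower and 48.7% called in either direction. The catalytic subunit Polr1a fell by 0.44, the promoter factor subunit Taf1c by 0.50, and the subunits Polr1c and Twistnb by 0.24 each.

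Markers of cells that use Bnc1 elsewhere were low. Of 12 keratinocyte markers, 4 (Krt18, Epcam, Dsp and Grhl2) were at 0 in all libraries, and the summed level was 14.8 to 15.5 CPM in WT and 8.89 to 11.4 in KO. 5 were tested and 3 fell (against 23.6% of all genes lower and 48.7% called either way): Krt14 by 2.83, Trp63 by 0.96, and Ovol1 from 17, 11 and 15 counts in WT to 0, 2 and 3 in KO. The other tested markers, Krt15 (log2 fold change 0.29, edgeR adjusted p = 0.222) and Sfn (0.10, edgeR adjusted p = 0.741), did not pass. Bnc1 mRNA thus rose while Krt14, Trp63 and Ovol1 fell, and any part they had in it was not tested. Of 7 germ cell markers, 3 were at 0 and the sum was 0.27 to 0.96 CPM over all libraries. Of 8 blood cell markers, 4 were at 0, and the sum was 4.88 to 5.54 CPM in WT and 2.34 to 2.91 in KO, where Ptprc fell by 1.78 on the log2 scale and Lyz2 rose from 3, 1 and 2 counts to 11, 10 and 13.

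Among 1984 circRNAs with at least 50 reads, the 5 whose levels followed circBnc2(E2-E3) most closely over the 12 libraries were a circle of Rps6kc1 (Pearson r = 0.889), one at chr1:173912814-173977437 with no host gene assigned (0.784), and circles of Myo10 (0.752), Tgfbr3 (0.748) and Kmt2a (0.722). The Rps6kc1 circle was read 69 and 58 times in whole-cell RNA of WT and 23 and 21 times in that of KO, and 1 and 3 times in WT cytoplasm against 20 and 26 times in KO cytoplasm. Since this circle was chosen for its likeness over these libraries, its opposite order of genotypes in whole-cell RNA and cytoplasm adds no support. The 12 libraries share fractions and genotypes, so these values are descriptions without a test. For Bnc2 mRNA, the closest of 14687 genes over 6 libraries were Vcan (r = 0.995), Pappa (0.994), Taf1 (0.987), Irgq (0.986) and Tns3 (0.986), and each had its lowest count in the second KO library.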

How the data were processed

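CircRNA-seq and mRNA-seq libraries of WT and XPO4 KO NIH/3T3 cells were analysed. The authors ran find_circ after RNase R treatment and deposited whole-number counts of junction reads per circRNA. For mRNA, the authors aligned to mm10 with HISAT2 and deposited raw gene counts made by featureCounts (version 2.0.0). Starts of circRNAs were moved by 1 base to count from 1. Absent circRNAs were entered as 0.

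Genotypes were compared within each fraction by the quasi-likelihood test of edgeR (version 4.0.16, in R 4.3.3) after TMM scaling, with Benjamini-Hochberg adjustment at 0.05, over all circRNAs with at least 10 reads, or over genes kept by filterByExpr. SE is the log2 fold change divided by the root of F. Ratios of reads per library total divided the summed reads of each genotype by the summed totals of its libraries. Exact permutation tests were two-sided. The 2 genes, the lists and the rules for naming were chosen with earlier results of these data known. Named were all members, the genes within 1 Mb, up to 4 called genes a list by highest count, and the 5 most alike by r. Other genes of the lists are named only to show the range within a list. 1 gene within 1 Mb of Bnc1 is counted but not reported here. Alternatives were DESeq2 (version 1.42.0), other scaling, other filters, single libraries left out and a replicate block. Same-numbered libraries did not deviate together (correlations between -0.139 and 0.121). The fits were run on simulated counts with known changes, placed in the better-counted features and drawn with a fixed spread. That run does not show how the fits perform on circles with few reads. The genome was GRCm38.p6 with GENCODE exons, and sequences were read from RefSeq's copy. CPM and FPKM used library totals after TMM scaling, and FPKM the exon lengths in the count tables. PCR reads without molecular identifiers are not independent molecules.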

Additional observations from a re-analysis of the deposited data

Results flagged for a closer look

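circBnc2(E2-E3) moved one way in every whole-cell library and the other way in every cytoplasmic library. The KO minus WT difference was -276 reads per 100000 in whole-cell RNA and 337 in the cytoplasm, and the difference between the fractions was not tested here. The labels of fraction and genotype were followed, and an exchange of libraries was not tested. circBnc2(E3-E4) also had opposite orders, with 7.79 in whole-cell RNA and -4.26 in the cytoplasm, again untested and on at most 8 reads a library. How many of all circRNAs had opposite orders in these fractions was not counted.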

How the results depend on the processing

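Leaving out each replicate gave Bnc2 mRNA log2 fold changes between -0.18 and 0.15. The sign turned without the second KO library (0.15) and the first WT library (0.01), and no setting passed the threshold. Bnc1 mRNA passed under every setting tried, with 0.49 to 0.60 when single libraries were left out. The count of Bnc2 circles called in whole-cell RNA was 0 with edgeR, DESeq2, no filter and each library left out (0 to 0), and 1 with library totals alone, the replicate block or a minimum of 20 reads. The replicate block gave circBnc2(E2-E3) an adjusted p of 0.0261 at a log2 fold change of -2.16 and raised all calls in whole-cell RNA from 0 to 2054 (23.1%). Since same-numbered libraries share only a number, this is no pairing. In the cytoplasm the 2 circles past the threshold became 1 with DESeq2, against 53.5% of all circRNAs past it with edgeR and 9.86% with DESeq2. With single libraries left out the log2 fold change of circBnc2(E2-E3) ran from 6.54 to 7.86 and that of circBnc2(E2-E4) from -6.85 to -1.97. In the nucleus the count stayed at 0 (0 to 0), while circBnc2(E2-E3) ran from -0.81 to 0.65 and circBnc2(E3) from -0.60 to 5.08 with single libraries left out, and circBnc2(E2-E3) was 0.46 with a minimum of 20 reads. The summed difference of -268 per 100000 lay between -286 and -250.3 with single libraries left out, and was 7.65 without the most abundant circle. With single libraries left out, whole-cell values of the rarer circles changed sign: circBnc2(E7) ran from -0.63 to 1.19, circBnc2(E5-E6) from -0.83 to 0.80, circBnc2(E2-E4) from -0.60 to 0.13 (0.07 without the second KO library) and circBnc2(E1b-E3) from -0.80 to 0.45, none past the threshold. For the 31 other genes that the naming rule took, settings added after seeing the data lost the call in 25 of 310 values over 9 genes, gained it in 1 (Xpo4 without the second KO library, log2 fold change 0.34) and turned none. Among the genes of that rule named above, the call was lost without single libraries for Fn1 (each WT library), Col1a2 (KO replicate 1, WT replicates 2 and 3), Lox and Polr1c (WT replicate 3), Twistnb (first KO), Trp63 (second WT), Snapc3 (first and second KO and WT) and 3110040N11Rik (KO replicates 1 and 2, WT replicates 2 and 3), with adjusted p up to 0.137. The cause of these changes was not tested. Circles with few reads and the nuclear libraries set the limits of depth.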
